A study of Mus musculus with 48 samples.

Results

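The genes described here mark lymphocytes and plasma cells. They are 10 genes named by symbol, out of 46517 genes in the count table: *Igha*, *Igkc*, *Ighm*, *Jchain*, *Cd79a*, *Cd3e*, *Cd4*, *Cd8a*, *Nkg7* and *Gzma*. They were followed in a study of liver spheroids grafted into the mouse eye, in the chamber behind the cornea, where hepatocytes engraft on the iris and can be imaged through the cornea. RNA was sequenced from 16 samples in 5 groups, all labelled WT Albino and C57BL/6N. The 5 explants (numbered 1, 2, 4, 5 and 6) were taken 2 months post-tx and each consisted of engrafted spheroids with the iris tissue around them. The 3 irises carried no graft, the 3 livers were endogenous liver of donor mice, and the 3 hepatocyte samples were the fraction enriched from donor liver by collagenase perfusion and a Percoll step that discards many non-parenchymal cells. The 2 spheroid samples were kept in vitro and not transplanted. No group carried a drug treatment or an engineered allele in the labels, and a separate animal for each sample is not stated, so that p-values measure the spread between these samples only.

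Immunoglobulins are made by B cells and, in large amounts, by plasma cells. A heavy chain (*Ighm* for IgM, *Igha* for IgA) pairs with a light chain, most often kappa (*Igkc*) in the mouse, and the J chain (*Jchain*) joins units of IgM and IgA into polymers that the polymeric immunoglobulin receptor (*Pigr*) carries across epithelia. *Cd79a* is a signalling chain of the B cell receptor, and *Cd3e* one of the T cell receptor. *Cd4* and *Cd8a* are the co-receptors that split T cells into helper and cytotoxic classes, and *Nkg7* and *Gzma* encode a granule membrane protein and a granule protease of cytotoxic T cells and natural killer (NK) cells. The liver holds many lymphocytes in its sinusoids, and the iris holds few.

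In GRCm38, *Igha* lies at chr12:113254830-113260236 and *Ighm* at chr12:113418558-113422730, both on the minus strand in the heavy chain locus, and *Igkc* at chr6:70726435-70726966. *Jchain* lies at chr5:88519809-88527891, *Cd79a* at chr7:24897381-24902197, *Cd3e* at chr9:44998743-45009590 and *Cd4* at chr6:124864692-124888221. *Cd8a* lies at chr6:71373427-71379173, *Nkg7* at chr7:43437073-43438246 and *Gzma* at chr13:113093825-113100979. Counts were taken over the exons, which span 532 bases in *Igkc*, a single exon, and 4032 bases in *Cd4*, with 11 exons. In 0 of the 10 genes did an exon overlap an exon of another gene.

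Promoters, the 250 bases before the start of transcription in RefSeq (GRCm38.p6), were read for 6 of the 10 genes. For *Nkg7* that start lies inside the gene span given above, so the last bases printed fall within that span. The 4 printed are those of *Jchain*, whose levels followed the livers, and of *Cd3e*, *Cd8a* and *Nkg7*, which were high together in explants 2 and 6. They run 5′ to 3′ on the strand of the gene, and capitals mark every match to the motifs searched on both strands: octamer ATGCAAAT, TATA box TATAAA, RUNX core TGTGGT, ETS core GGAAGT and E box CAGGTG.
Jchain, chr5:88527898-88528147, minus strand: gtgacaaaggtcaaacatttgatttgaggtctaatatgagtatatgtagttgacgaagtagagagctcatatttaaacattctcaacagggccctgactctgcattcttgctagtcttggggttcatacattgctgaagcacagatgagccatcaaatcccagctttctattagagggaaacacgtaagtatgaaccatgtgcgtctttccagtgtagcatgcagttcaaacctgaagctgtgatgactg
Cd3e, chr9:45009612-45009861, minus strand: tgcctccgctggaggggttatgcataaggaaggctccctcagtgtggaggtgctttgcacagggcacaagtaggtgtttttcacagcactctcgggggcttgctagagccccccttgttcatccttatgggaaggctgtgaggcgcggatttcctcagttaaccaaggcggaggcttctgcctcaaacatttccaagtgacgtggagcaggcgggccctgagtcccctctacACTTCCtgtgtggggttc
Cd8a, chr6:71373177-71373426, plus strand: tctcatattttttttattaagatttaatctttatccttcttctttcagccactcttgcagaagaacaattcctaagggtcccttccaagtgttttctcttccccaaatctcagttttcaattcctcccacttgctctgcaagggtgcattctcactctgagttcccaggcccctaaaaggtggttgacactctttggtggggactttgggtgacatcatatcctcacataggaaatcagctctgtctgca
Nkg7, chr7:43436888-43437137, plus strand: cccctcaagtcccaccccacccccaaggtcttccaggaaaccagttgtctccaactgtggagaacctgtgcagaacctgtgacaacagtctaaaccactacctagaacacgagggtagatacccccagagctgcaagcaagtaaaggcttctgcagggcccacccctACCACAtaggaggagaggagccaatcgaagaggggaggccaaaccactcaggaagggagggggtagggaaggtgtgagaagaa
In the promoter of *Cd3e* the ETS core stood once, on the opposite strand, and that of *Nkg7* held the RUNX core once, on the opposite strand. The promoters of *Jchain* and *Cd8a* held 0 matches. Of 32851 mouse promoters of this length, 19.7% hold the ETS core and 14% the RUNX core, and a match is a description of letters only.

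The samples held 2718518 to 6789648 counts after duplicate reads were removed, with the explants the deepest and the hepatocytes and spheroids the shallowest. A count of 0 allows up to 3 counts, which was 0.442 CPM (counts scaled to the library total) in the deepest sample and 1.10 CPM in the shallowest, and counting intervals cover counting error only. The markers of the labelled tissues were in place. A list of 6 hepatocyte genes summed to 9467 to 10093 TPM (transcript level scaled for gene length and library total) in livers, 4236 to 5646 in explants and 1321 to 1578 in irises, and a list of 6 iris genes to 6976 to 7398 in irises, 4957 to 6406 in explants and 444 to 460 in livers. Libraries of 3 samples stood apart for the genes described here. Explants 2 and 6 were the 2 highest explants for 6 of the 10 genes (60.0%), against 12.8% of 17235 genes with at least 10 counts in 3 samples. Liver 1 was the highest liver for 9 of the 10 (90.0%), against 45.7% of those genes. The fits without them are given below where the counts allowed one. In bulk RNA, fewer cells of a type and less RNA per cell cannot be told apart.

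**Figure D1:**
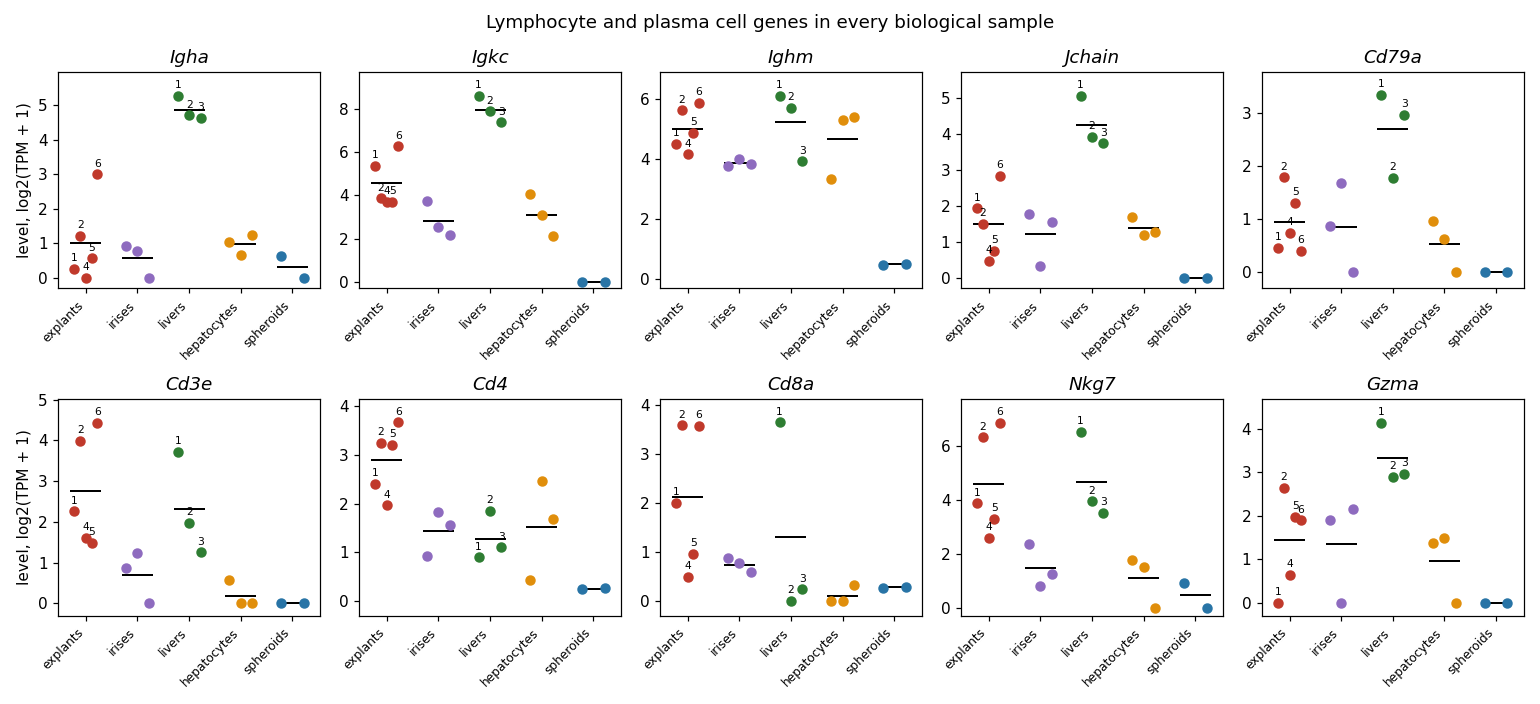
Level of each of the 10 genes in every sample as log2(TPM + 1), 1 panel per gene, with explants in red, irises in purple, livers in green, hepatocytes in orange and spheroids in blue, and a line at each group's mean of these log values. Numbers name the explants and livers: *Igha*, *Igkc* and *Jchain* were highest in all 3 livers, *Cd3e*, *Cd8a* and *Nkg7* in explants 2 and 6 and liver 1, and every gene was at or near 0 in spheroids.

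By mean TPM, which is per length, *Igkc* and then *Ighm* were the most abundant of the 10 genes in liver. *Igkc* stood at 382, 233 and 165 TPM in the 3 livers, and at 39.9, 13.5, 11.9, 12.1 and 75.5 TPM in explants 1, 2, 4, 5 and 6. It was 12.4, 4.83 and 3.42 TPM in irises, 15.8, 7.47 and 3.38 TPM in hepatocytes and at 0 counts in both spheroid samples. Every liver thus exceeded every other sample, and explant 6 was the highest sample outside the livers. *Igha* showed a sharper contrast. It was 37.9, 25.1 and 23.97 TPM in livers, 0.204, 1.34, 0, 0.482 and 6.99 TPM in the explants and at most 1.35 TPM in irises, hepatocytes and spheroids. Of the 50 *Igha* counts in explants, 39 came from explant 6. *Jchain* was 32.4, 13.98 and 12.3 TPM in livers, 2.81, 1.83, 0.388, 0.681 and 6.08 TPM in explants, 0.255 to 2.38 TPM in irises and 1.26 to 2.23 TPM in hepatocytes, with 0 counts in spheroids. For these 3 genes the livers did not overlap the explants, and explants, hepatocytes and irises overlapped each other.

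*Ighm* was distributed differently. It was 68.7, 51.5 and 14.3 TPM in livers, 21.9, 48.8, 17.1, 28.4 and 58.1 TPM in explants, 12.7, 14.97 and 13.5 TPM in irises and 9.28, 38.3 and 41.96 TPM in hepatocytes. Livers, explants and hepatocytes overlapped, all explants lay above all irises, and the spheroids held 1 count each. The proportion of kappa light chain to IgM heavy chain therefore differed between samples. The ratio of *Igkc* to *Ighm* TPM was 5.57, 4.52 and 11.5 in livers, and 1.82, 0.276, 0.698, 0.425 and 1.3 in explants. It was 0.975, 0.322 and 0.253 in irises and 1.70, 0.195 and 0.0806 in hepatocytes. *Igkc* exceeded *Ighm* in all 3 livers, in explants 1 and 6 and in hepatocyte sample 1, and was below it in the other samples that held both. These ratios were not tested.

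**Figure D2:**
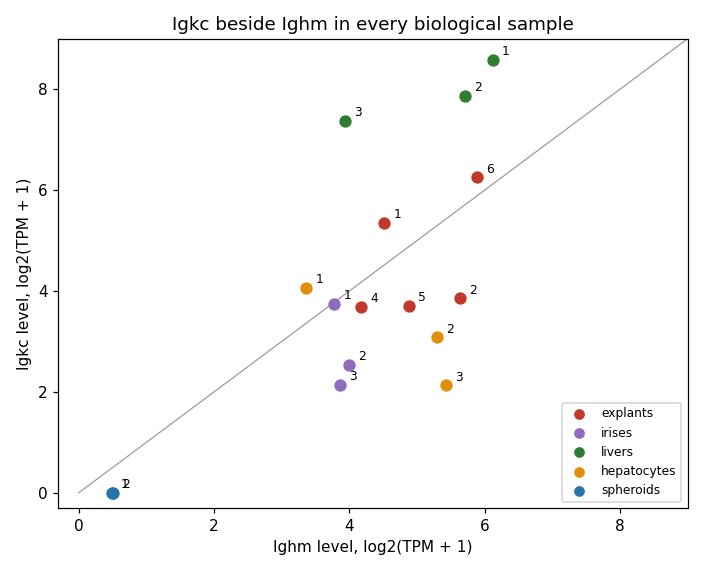
*Igkc* against *Ighm* in each sample, both as log2(TPM + 1), with the grey line marking equal levels and colours as in the panels by gene. The 3 livers lie above the line, at 165 to 382 TPM of *Igkc*, whereas explants, irises and hepatocytes scatter around or below it and the spheroids sit near the origin.

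*Cd79a*, of the B cell receptor, was low throughout. It was 9.09, 2.42 and 6.79 TPM in livers (19, 5 and 15 counts), 0.328 to 2.46 TPM in explants and 0 to 2.20 TPM in irises. At most 7 counts were found in any sample outside the livers, and liver 2 did not exceed explant 2. *Cd3e*, of the T cell receptor, was 3.79, 14.96, 2.04, 1.79 and 20.6 TPM in explants 1, 2, 4, 5 and 6, 0.836, 1.34 and 0 TPM in irises and 12.1, 2.94 and 1.38 TPM in livers. All explants and all livers lay above all irises, the livers by a narrow margin, and 1 count was found over the 3 hepatocyte samples. Explants 2 and 6 and liver 1 were the 3 highest samples.

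The co-receptors did not move together. *Cd4* was 4.32, 8.50, 2.90, 8.29 and 11.7 TPM in the explants, 0.893, 2.55 and 1.96 TPM in irises, 0.864, 2.62 and 1.14 TPM in livers, 0.347, 4.53 and 2.23 TPM in hepatocytes and 0.189 and 0.200 TPM in spheroids. Every explant exceeded every iris and every liver, and explant 4, the lowest, was below hepatocyte sample 2. *Cd8a* was 2.99, 10.97, 0.402, 0.942 and 10.9 TPM in the explants, 0.825, 0.706 and 0.50 TPM in irises and 11.5, 0 and 0.181 TPM in livers. Liver 1 held 60 of the 61 *Cd8a* counts of the livers, and explants 2 and 6 held 78 and 83 of the 192 of the explants. Explant 4 lay below all irises, so that explants overlapped both irises and livers.

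The granule genes also separated. *Nkg7* was the most abundant of the T cell and cytotoxic genes, at 13.6, 78.7, 5.00, 8.78 and 114 TPM in the explants, 4.10, 0.731 and 1.38 TPM in irises, 91.3, 14.4 and 10.5 TPM in livers and at most 2.39 TPM in hepatocytes and spheroids. All explants exceeded all irises, and explants 2 and 6 and liver 1 were again the 3 highest. *Gzma* was 0, 5.24, 0.556, 2.93 and 2.72 TPM in the explants, 2.73, 0 and 3.45 TPM in irises and 16.7, 6.41 and 6.76 TPM in livers. All livers lay above all explants, and explants and irises overlapped fully at 0 to 9 counts.

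By group mean, livers came first for *Igha*, *Igkc*, *Ighm*, *Jchain*, *Cd79a* and *Gzma*, and explants came first for *Cd3e*, *Cd4*, *Cd8a* and *Nkg7*. Spheroids came last for all but *Cd8a*, whose 1 count in each spheroid sample is at the floor. Of the 40 pairs of groups that stood next to each other in the order of a gene, 11 did not overlap. The order was set by the same levels, and the share of such pairs over all genes was not computed, so the count is a description only. Livers and explants, as neighbours, did not overlap for *Igha*, *Igkc*, *Jchain* and *Gzma*, nor did livers and irises for *Cd3e* and *Nkg7*. The other pairs without overlap set spheroids below irises (*Igkc*, *Ighm*, *Jchain* and *Cd8a*) or below livers (*Cd4*).

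Explants were compared with irises to see which of these genes differ between host tissue with a graft and host tissue without one. Of the 10 genes, 7 had enough counts to be tested, and *Igha*, *Cd79a* and *Gzma* did not. *Cd4* rose by 2.12 on the log2 scale (SE 0.56, edgeR adjusted p = 0.0376), and 0 genes fell. Among the 16764 genes tested, 6.47% were called, 6.16% higher and 0.316% lower. The median difference of the 7 tested genes was 2.25, beside 0.01 over all genes tested. *Nkg7* differed by 4.51 (SE 1.39, edgeR adjusted p = 0.0656), *Cd3e* by 3.65 (SE 1.23, 0.0865) and *Cd8a* by 3.07 (SE 1.16, 0.119), and none of these passed the test. *Ighm* differed by 1.47 (SE 0.45, edgeR adjusted p = 0.0641), *Igkc* by 2.25 (SE 0.84, 0.116) and *Jchain* by 0.73 (SE 0.89, 0.641). At an unadjusted p under 0.05, 6 of the 7 were higher and 0 lower, and DESeq2 called 6 higher and limma-voom 0. Over all genes, DESeq2 called 1264 of 30876 tested higher and limma-voom 541 of 16764. The share of all genes at an unadjusted p under 0.05 was not computed in any comparison, so counts at that limit are descriptions only. Explants and irises did not overlap in TPM for *Ighm*, *Cd3e*, *Cd4* and *Nkg7*, all higher in explants, against 10.9% of genes.

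The call of *Cd4* was lost without explant 2 (edgeR adjusted p = 0.0732), explant 5 (0.0691), iris 1 (0.145), iris 2 (0.0852) or iris 3 (0.122), and was joined by others without explant 1 or explant 4, where 2 and 4 of the genes were called. Without explants 2 and 6 together, an alternative chosen after seeing the data, 0 were called: *Cd4* was 1.55 (edgeR adjusted p = 0.0749), *Igkc* 1.59 (0.152) and *Ighm* 0.72 (0.0754), and *Nkg7*, *Cd3e* and *Cd8a* had too few counts to be tested. *Cd3e* in irises was at the limit of a count of 0, with 5 counts in all, and the ratio of explants to irises in CPM was 12.1 (95% exact counting interval 5.04 to 37.9), and 3.42 without explants 2 and 6 (1.26 to 11.6). The macrophage list moved with these genes: it summed to 2488 and 3035 TPM in explants 2 and 6, 1102 to 1696 TPM in the other explants and 785 to 842 TPM in irises, with 5 of its 10 genes called higher by edgeR (1 by limma-voom) and all 10 highest in explants 2 and 6 among explants. The 6 hepatocyte genes were also highest in those 2 explants. The part of either in the lymphocyte genes was not tested.

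Explants were then set beside livers, since an explant holds host and graft RNA. Of the 10 genes, 9 were tested, all but *Cd79a*. Here 4 fell and 0 rose, where 48.6% of all genes tested were called, 19.7% lower and 28.9% higher. At an unadjusted p under 0.05, 1 was higher, *Cd4*, which DESeq2 also called, and limma-voom did not. DESeq2 called 5290 of 30395 genes higher in this pair. *Igha* fell by 4.75 (SE 0.84, edgeR adjusted p = 0.000579), *Igkc* by 3.87 (SE 0.58, 0.000197), *Jchain* by 3.82 (SE 0.67, 0.000563) and *Gzma* by 2.85 (SE 0.71, 0.00470). The same 4 did not overlap in TPM, against 14.6% of genes that lay wholly lower in explants. *Ighm* differed by -1.14 (SE 0.52, edgeR adjusted p = 0.0735). The 4 were called whichever 1 sample was left out. *Gzma* was not called with a replicate block (edgeR adjusted p = 0.130), and did not reach the test in the single fit of all groups or in technical libraries a.

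For *Cd3e*, *Cd8a* and *Nkg7*, explants and livers were not told apart. The difference was -0.08 for *Cd3e* (SE 0.96), -0.28 for *Cd8a* (SE 1.28) and -0.53 for *Nkg7* (SE 1.05). With scaling by library size alone the differences came to 0.50, 0.28 and 0.034, and leaving out liver 1 gave 1.18, 4.83 and 1.01, so that the sign turned while no call was made (*Cd8a* without liver 1, edgeR adjusted p = 0.0778). Without explants 2 and 6, *Nkg7* was lower in explants by 2.89 (edgeR adjusted p = 0.0107). *Cd4* differed by 1.41 (SE 0.60, edgeR adjusted p = 0.0566), with all explants above all livers in TPM, as for 60.6% of genes. It was called with library size alone (0.00894). Scaling mattered in this pair: the median over all genes tested was 0.17 by TMM (trimmed mean of M values) and 0.80 by library size, and 59.5% and 80.5% of called genes were higher. These fold changes are therefore relative to that median and on another scale than the levels in TPM.

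**Figure D3:**
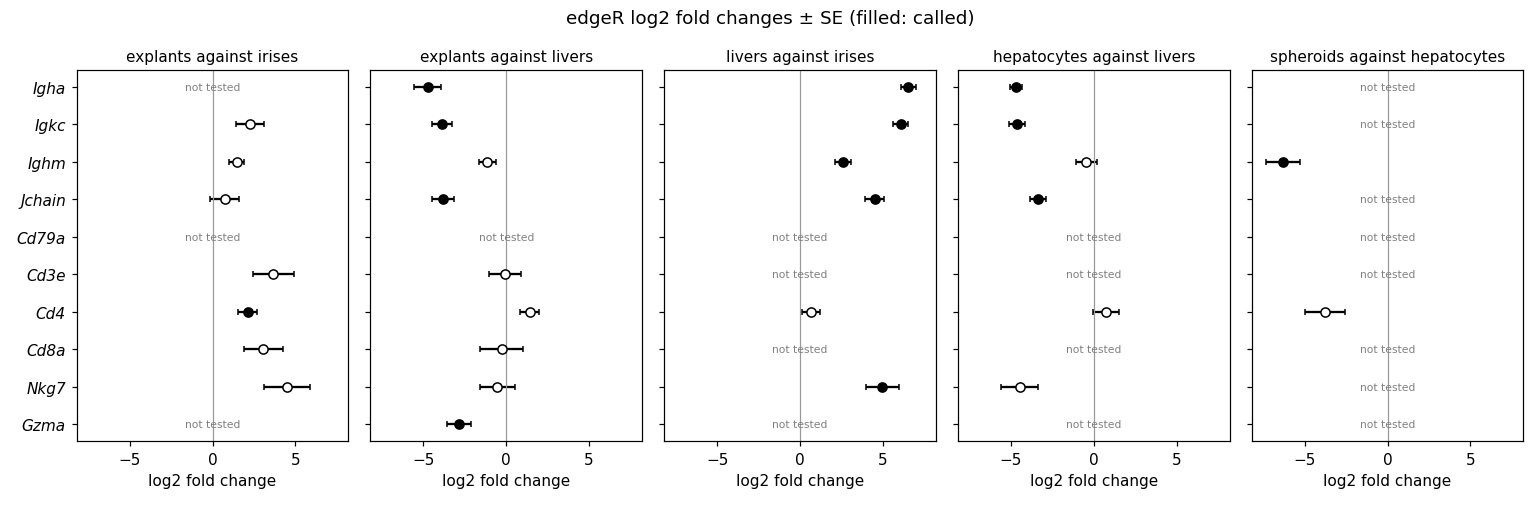
Log2 fold change of each gene with its standard error in the 5 comparisons, fitted by edgeR on counts, with filled points for called genes and open points for those tested and not called. *Igha*, *Igkc* and *Jchain* lie 3.82 to 4.75 below 0 in explants against livers and 4.50 to 6.53 above 0 in livers against irises, whereas *Cd3e*, *Cd8a* and *Nkg7* lie at 3.07 to 4.51 in explants against irises with wide errors.

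*Cd4* was the 1 gene of the 10 (10%) whose lowest explant exceeded the highest iris and the highest liver in TPM. The same held for 425 of 17235 genes (2.47%). With TMM-scaled CPM in place of TPM, or with technical libraries a alone, it held for 0 of the 10. In explants, *Cd4* counted 32, 67, 24, 78 and 99, beside 6 to 16 in irises and 5 to 15 in livers.

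Liver and iris, the tissues an explant brings together, differed widely in these genes. In livers against irises, 6 were tested and 5 rose, where 51.9% of genes tested were called, 22.1% higher and 29.8% lower. *Igha* was higher by 6.53 (SE 0.46, edgeR adjusted p = 2.41e-06), *Igkc* by 6.06 (SE 0.44, 2.7e-06), *Nkg7* by 4.97 (SE 0.98, 0.00151), *Jchain* by 4.50 (SE 0.57, 0.000102) and *Ighm* by 2.58 (SE 0.47, 0.0010018). For *Ighm* livers and irises overlapped in TPM, with liver 3 at 14.3 TPM and iris 2 at 14.97 TPM. Without liver 1, which held 115 of the 147 *Nkg7* counts of livers, *Nkg7* was 3.46 (edgeR adjusted p = 0.000395). *Cd4* was the exception at 0.67 (SE 0.55, edgeR adjusted p = 0.293), and -0.01 with library size alone. The ratio of livers to irises for *Cd3e* was 8.76 (95% exact counting interval 3.41 to 28.7), and 3.48 without liver 1 (1.05 to 13.2). The median over all genes was -0.11 by TMM and -0.80 by library size, with 42.6% and 22.5% of called genes higher. These comparisons share samples with each other, and the agreement of one with another carries no separate weight.

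Hepatocyte samples held less of the plasma cell transcripts than livers. In hepatocytes against livers 6 genes were tested, 3 fell and 0 rose, where 2.72% of genes tested were called, 2.31% lower and 0.409% higher. At an unadjusted p under 0.05, 4 were lower and 0 higher, and DESeq2 called 4 and limma-voom 1. Over all genes, DESeq2 called 647 of 25658 and limma-voom 20 of 12236. *Igha* fell by 4.69 (SE 0.36, edgeR adjusted p = 0.00399), *Igkc* by 4.64 (SE 0.47, 0.00896) and *Jchain* by 3.38 (SE 0.49, 0.0264). The call of *Jchain* was lost without liver 2 (edgeR adjusted p = 0.0565), hepatocyte sample 2 (0.113) or hepatocyte sample 3 (0.141), and that of *Igkc* without hepatocyte sample 3 (0.0676), which left 1 call. *Nkg7* differed by -4.46 (SE 1.12, edgeR adjusted p = 0.0654), and by -2.89 without liver 1 (0.0819). In TPM, 7 of the 10 were lower without overlap, against 23.8% of genes tested. *Cd79a*, *Cd3e* and *Gzma* are among the 7 and were not tested, so these shares come from unlike sets.

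For *Ighm* and *Cd4*, hepatocytes and livers were not told apart. *Ighm* differed by -0.44 (SE 0.63, edgeR adjusted p = 0.692) and *Cd4* by 0.73 (SE 0.78, 0.596), with hepatocyte samples 2 and 3 high for both and sample 1 low. *Ighm* counted 25, 91 and 88 and *Cd4* 2, 23 and 10 in the 3 hepatocyte samples. Without hepatocyte sample 1 the difference of *Ighm* was 0.005, and without sample 2 that of *Cd4* was -0.16. *Cd79a*, *Cd3e*, *Cd8a*, *Nkg7* and *Gzma* were at 0 to 3 counts in every hepatocyte sample, with ratios of livers to hepatocytes of 11.1 for *Cd79a* (95% exact counting interval 3.52 to 56.0), 25.04 for *Nkg7* (10.5 to 78.3) and 8.09 for *Gzma* (2.91 to 31.2). Without liver 1 the ratios were 8.52 for *Cd79a* (2.53 to 44.8), 8.18 for *Nkg7* (3.16 to 26.9) and 5.43 for *Gzma* (1.77 to 22.2). The ratio for *Cd3e* was 28.96 (4.86 to 1177), and 11.5 without liver 1 (1.59 to 504). That for *Cd8a* was 51.96 (8.98 to 2086), and 1.28 without liver 1 (0.0163 to 100.3), at 1 count on each side. The difference of *Cd8a* thus rested on liver 1. The 4 globin genes of the erythroid list fell as well (3 of them by limma-voom), and summed to 379 to 545 TPM in livers and 27.2 to 57.6 TPM in hepatocytes. The other gene of that list, *Alas2*, a heme synthesis enzyme of red cell precursors, did not, at 150 to 249 TPM in livers and 284 to 313 TPM in hepatocytes. Their part in the other changes was not tested, and reads of the paired globin copies may be split between them.

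In vitro spheroids held almost none of these transcripts. All 10 genes were at or under 3 counts in both samples, with 2 the highest, and *Igkc*, *Jchain*, *Cd79a*, *Cd3e* and *Gzma* were at 0. Only *Ighm* and *Cd4* could be tested against hepatocytes, where 17.2% of genes tested were called, 9.11% lower and 8.13% higher. *Ighm* fell by 6.32 (SE 1.01, edgeR adjusted p = 0.00431), and its ratio of hepatocytes to spheroids was 72.3 (95% exact counting interval 19.8 to 601). *Cd4* differed by -3.75 (SE 1.21, edgeR adjusted p = 0.0556), with a ratio of 12.4 (3.19 to 106). *Igkc* was at least 4.49-fold and *Jchain* at least 3.78-fold higher in hepatocytes, taking the floor of 3 counts over the group. In TPM 5 of the 10 were lower without overlap, against 15.8% of genes tested. *Igha*, *Igkc* and *Jchain* are among the 5 and were not tested, so the 2 shares come from unlike sets. Of the tested genes, 47.2% of those called were higher by TMM and 65.5% by library size, where the median moved from 0.01 to 0.27.

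Other genes of each class came from lists of 12 cell types and tissues. The immunoglobulin and plasma cell list (18 genes) had 6 tested in explants against irises and 0 called by edgeR, DESeq2 or limma-voom, with 2 higher at an unadjusted p under 0.05 and a median of 0.35. Against livers it had 8 tested, with 5 lower and 1 higher. Of the lower ones, *Txndc5*, *Xbp1* and *Sdc1*, which serve protein folding, the secretory stress response and the cell surface, are not confined to plasma cells: they were at 64.9 to 210 TPM in hepatocytes and 38.6 to 267 TPM in spheroids. *Ighg2b*, an IgG heavy chain, fell by 4.49 (SE 0.77) and *Iglc2*, a lambda light chain, by 2.67 (SE 0.95), and *Prdm1*, a regulator of plasma cell differentiation also used by other cells, was the 1 that rose. In livers against irises 5 of 8 rose, those 3 genes again, *Ighg2b*, and *Iglc2* by 5.46 (SE 0.65). *Ighg2c* went its own way: it was 17.2 to 18.9 TPM in irises, 34.9 TPM in explant 1, 5.77 to 12.1 TPM in the other explants and 28.4, 31.9 and 3.48 TPM in livers. *Ighg2b* and *Ighg2c* are near copies, and reads may be split between them.

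The B cell list (12 genes) had 4 tested in explants against irises, of which *Cd22*, an inhibitory receptor of B cells, rose by 2.39 (SE 0.64), a call that limma-voom did not make. *Cd79b*, partner of *Cd79a*, fell in explants against livers by 1.78 (SE 0.54) and in hepatocytes against livers by 5.04 (SE 1.05, not called by limma-voom), and rose in livers against irises by 2.91 (SE 0.64).

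The T cell list (18 genes) had 12 tested in explants against irises and 0 called by edgeR, with 6 higher at an unadjusted p under 0.05. DESeq2 called 4 higher and limma-voom 0, and the median by edgeR was 1.53, beside 0.01 over all genes. Its summed level was 95.7, 215, 68.4, 69.0 and 218 TPM in the explants, 53.9 to 70.2 TPM in irises, 214, 45.4 and 47.2 TPM in livers, 28.5 to 31.5 TPM in hepatocytes and 15.8 to 17.7 TPM in spheroids. Part of this sum did not follow *Cd3e*: *Tcf7* was 22.6 to 26.95 TPM in explants and 23.6 to 33.4 TPM in irises. *Foxp3* was 11.6 and 7.46 TPM in spheroids, where *Cd3e* was at 0. Against livers, 2 of 15 rose, *Trdc* and *Tcf7*, whose explant TPM overlapped those of irises, and 1 fell, with a median of -0.16. The 1 that fell was *Zap70*, a kinase of the T cell receptor, by 4.04 (SE 0.52), and it also fell in spheroids against hepatocytes by 6.95 (SE 0.81). *Zap70* was at 10.4 to 23.1 TPM in hepatocytes, where *Cd3e* was at 0 to 0.488 TPM.

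The NK and cytotoxic list (14 genes) had 5 tested in explants against irises, of which edgeR called 3 higher, DESeq2 called 5 of the list and limma-voom 0, with a median of 2.83 by edgeR. *Klrk1*, an activating receptor of NK and T cells, rose by 3.96 (SE 0.99), *Ctsw*, a protease of cytotoxic cells, by 2.83 (SE 0.75) and *Klrd1*, a lectin-like receptor, by 1.90 (SE 0.53). Against livers 0 of 6 were called by edgeR, also 0 at an unadjusted p under 0.05 and by DESeq2 and limma-voom, with a median of -0.27. The summed level was 47.7, 105, 14.8, 31.7 and 131 TPM in the explants, 7.14 to 10.3 TPM in irises and 164, 22.1 and 27.4 TPM in livers. *Gzmk*, a granule protease, was at 0 counts in all irises, in livers 2 and 3 and in explant 4, and at 12.2, 8.26 and 14.5 TPM in explant 2, explant 6 and liver 1. *Prf1*, the pore-forming protein, counted 32 in explant 6 and at most 2 in any other explant.

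**Figure D4:**
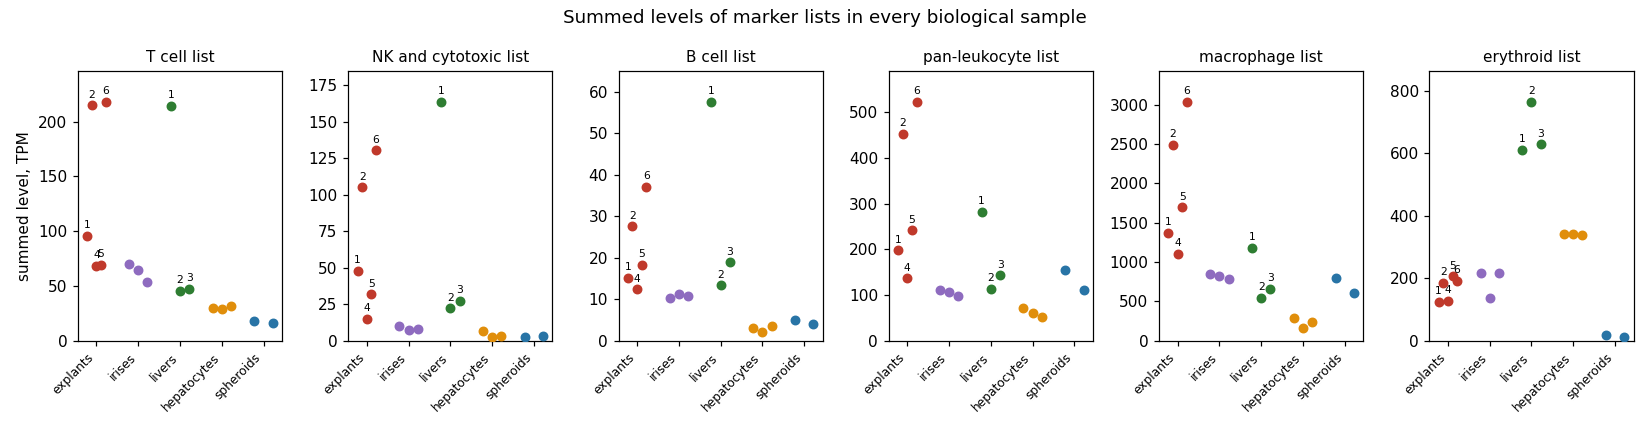
Summed TPM of 6 marker lists in each sample, on a linear axis from 0, with numbered explants and livers and colours by group as in the panels by gene. In the T cell and NK lists explants 2 and 6 lie near liver 1, at 105 to 218 TPM, and in the macrophage list, at 2488 and 3035 TPM, they lie above every liver.

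Similarity of pattern was described by Pearson's r of log2(CPM + 0.5) over the 16 samples, among 17235 genes and for the 8 of the 10 genes with at least 10 counts in 3 samples. Samples of a group share tissue, so r mostly follows the groups. *Igkc* and *Jchain* were each other's nearest gene (r = 0.940), and *Igha* was nearest to the light chain segment *Igkv1-117* (0.939), *Pde2a* (0.913) and *Iglc2* (0.907). *Esr1*, a gene of none of the lists, came second for both *Igkc* (0.921) and *Jchain* (0.899), ahead of *Iglc2* (0.895) for *Igkc* and *Igha* (0.891) for *Jchain*. *Cd3e* was nearest to *Cd3d* (0.971), *Ms4a4b* (0.966) and *Nkg7* (0.961), and *Nkg7* to *Cd8b1* (0.969), *Cd3e* (0.961) and *Ccl5* (0.958). *Cd8a* was nearest to *Gzmk* (0.958), *Pdcd1* (0.956) and *Il2rg* (0.939). *Ighm* and *Cd4* stood outside both sets. The nearest genes were *Arap1* (0.912), *Tifa* (0.910) and *Igfbp2* (0.909) for *Ighm*, and *Adora3* (0.870), *Gm43302* (0.860) and *Tifa* (0.848) for *Cd4*.

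Antigen receptor V segments, included once the values were known, give a view of the receptors behind these transcripts. Counts over immunoglobulin V segments summed to 381, 121 and 187 in the livers, on 87, 46 and 56 segments. In the explants they summed to 32, 10, 2, 16 and 51, on 6, 8, 2, 7 and 16 segments, and in irises to 2 to 12. In hepatocytes they summed to 25, 8 and 19, and each spheroid sample held 1. Livers thus held more immunoglobulin segments than any other sample. Counts over T cell receptor V segments summed to 17, 104, 9, 16 and 64 in the explants, 4, 25 and 8 in irises and 62, 10 and 2 in livers, with at most 2 in hepatocytes and spheroids. Explants 2 and 6 and liver 1 were the 3 highest, as for *Cd3e*, and depth differed between samples.

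**Figure D5:**
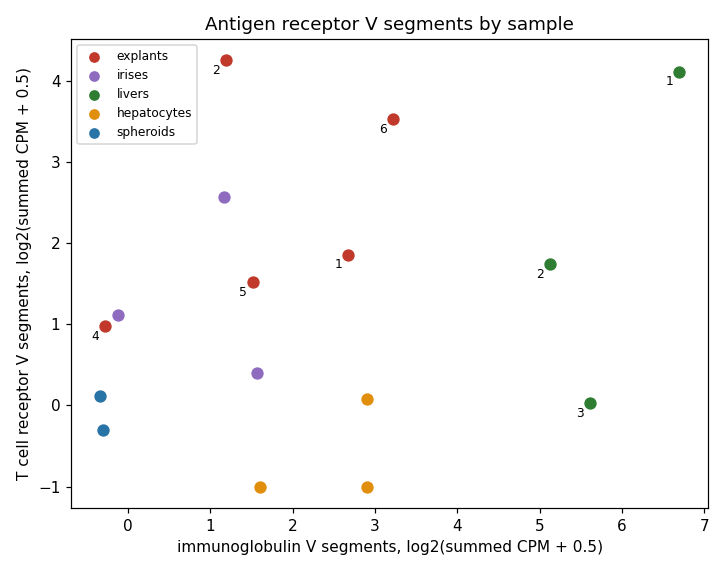
Summed CPM over immunoglobulin V segments against that over T cell receptor V segments, both as log2(summed CPM + 0.5), in each sample, with numbered explants and livers and colours by group. The 3 livers lie furthest right, at 34.3 to 103 CPM of immunoglobulin segments, and explants 2 and 6 and liver 1 lie highest, at 11.01 to 18.5 CPM of T cell receptor segments.

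Single segments led in several samples, with and without a graft. In explant 1, *Igkv5-48* took 24 of the 32 immunoglobulin counts (75%), with 4, 9 and 11 in its technical libraries. In the livers the leading segment took 6.56% to 15.7%. *Trbv13-3* took 44 of the 104 T cell receptor counts in explant 2 (42.3%) and 25 of the 64 in explant 6 (39.1%), at most 3 in any other sample and 0 in livers. In liver 1 another segment led, *Trbv5*, with 20 of 62 (32.3%). Irises also had a leading segment, at low counts: *B230359F08Rik* took 7 of 8 in iris 3 (87.5%) and 6 of 25 in iris 2 (24%). It led in explant 5 as well, with 5 of 16 (31.2%), where *Iglv2* took 8 of 16 immunoglobulin counts (50%). V segments have near copies, and the segment that a read was assigned to is uncertain.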

How the data were processed

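Counts of reads per gene and TPM (transcript levels scaled for gene length and library total) were deposited by the authors for 16 samples with 3 technical libraries each, 48 libraries in all, prepared by Smart-seq3 from bulk RNA. According to the methods, the authors aligned reads with TopHat2, removed duplicates by unique molecular identifier with SAMtools and UMI-tools, and counted reads over exons with featureCounts 1.4.6-p5 without regard to strand, on mm10 (GRCm38). Summing the 3 libraries gives the deposited count of a sample for 100% of values, and TPM recomputed from counts and gene lengths equal the deposited TPM. The authors' table of TPM after subtraction of an iris contribution, treated as a score, served only for gene symbols of 19686 genes, and GENCODE M21 named 26319 more. The 92 ERCC controls took 418 counts in all and were left out of the library sizes and tests.

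The genes described and the 12 lists of 125 further genes were chosen with earlier results of these data known. Named genes are the 10 themselves, genes of the lists that were called, at the floor or among the highest in explants, and the 3 genes most like each of the 8 with at least 10 counts in 3 samples. V segments, their leading segments, the explants left out together and the ratios without liver 1 were chosen after seeing the data, and a few list genes (*Ighg2c*, *Gzmk*, *Prf1*, *Zap70*, *Foxp3*) were named after their values were seen.

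In R 4.3.3, 2 groups at a time were fitted by the quasi-likelihood method of edgeR 4.0.16, after filterByExpr and TMM scaling, over all genes left by the filter. A call needed an adjusted p (Benjamini-Hochberg, over all genes tested) under 0.05 together with a log2 fold change beyond 1 in either direction. Where a group held at most 3 counts in each sample, the ratio of CPM was given with its 95% exact interval. Intervals and floors cover counting error only. The edgeR, DESeq2 and limma-voom fits were run on simulated data in their default form, and the other alternatives were not. The simulation gave every gene the same dispersion and placed changes outside the low counts. It therefore cannot speak for genes as low or as variable as some described here. Alternatives were DESeq2 1.42.0, limma-voom (limma 3.58.1), RLE size factors, library size alone, no filter, at least 10 counts in every sample, a single fit of all 5 groups, technical libraries a alone, no fold change limit, a replicate block, TMM-scaled CPM, and each sample left out in turn. Tables and figures were made in Python 3.11.15 with numpy 2.4.6, pandas 2.3.3, scipy 1.17.1 and matplotlib 3.10.9. The labels and files name no batch. Reads and images were not analysed here.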

Additional observations from a re-analysis of the deposited data

Results flagged for a closer look

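Among 13 groups of values tested for a sample far from the others, 1 stood out, and chance flags about 1 in 20. *Igha* in explants was 6.99 TPM in explant 6 and 0 to 1.34 TPM in the other 4, with a gap of 0.808 of the whole range, above the critical value of 0.71. The 39 counts of explant 6 came from all 3 technical libraries.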

How the results depend on the processing

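The number of the 10 genes called moved with several choices. In explants against irises (1 called), DESeq2 called 6, no filter 3, technical libraries a alone 3, the replicate block 5, limma-voom 0, at least 10 counts in every sample 0, the fit without explants 2 and 6 together 0, and leaving out 1 sample 0 to 4. In explants against livers (4), at least 10 counts in every sample gave 1, since few of the genes then remain, and leaving out 1 sample 4 to 6. In livers against irises (5), DESeq2 and no filter each gave 9, at least 10 counts 1, and leaving out 1 sample 6 to 7. In hepatocytes against livers (3), no filter gave 8, limma-voom 1, at least 10 counts 0, and leaving out 1 sample 1 to 3. In spheroids against hepatocytes (1), DESeq2 and no filter each gave 4, the single fit 2, the replicate block 2, limma-voom 0 and at least 10 counts 0, and leaving out 1 sample 1 to 2. The gene above both tissues of an explant numbered 1 in TPM, 0 in TMM-scaled CPM and 0 in technical libraries a. Other than for the count filter, the cause was not tested.

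Signs turned in 18 of the fits of single genes and in 0 for a called gene. In explants against livers *Cd3e* was 0.50 with library size alone, 0.0002 with no filter, 0.025 in the single fit and -0.79 to 1.18 with 1 sample left out. *Cd8a* was 1.09 with limma-voom, 0.28 with library size alone, 0.18 with the replicate block and -0.86 to 4.83 with 1 sample left out, and *Nkg7* was 0.034 with library size alone and -1.35 to 1.01 with 1 sample left out. In livers against irises *Cd4* was -0.01 with library size alone. In hepatocytes against livers, leaving out 1 sample gave -0.86 to 0.005 for *Ighm* and -0.16 to 1.36 for *Cd4*. In explants against livers the call of *Gzma* was lost with the replicate block (edgeR adjusted p = 0.130), and *Gzma* was not tested in the single fit or in technical libraries a.

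Over all genes, 1085 of 16764 tested were called in explants against irises. DESeq2 called 1332 of 30876, no filter 1207 of 30884, technical libraries a 840 of 14369 and the replicate block 843 of 16764. Limma-voom called 583 of 16764, at least 10 counts in every sample 644 of 14453, and the fit without explants 2 and 6 called 817 of 16239. Without an iris 583 to 630 were called. With at least 10 counts, 4362 of 11393 in place of 8020 of 16506 were called in explants against livers. In livers against irises that filter gave 4474 of 11102 in place of 8028 of 15459, DESeq2 8872 of 29055 and no filter 9652 of 29061. In hepatocytes against livers 333 of 12236 were called, 647 of 25658 with DESeq2, 20 of 12236 with limma-voom and 1205 of 25664 with no filter. At least 10 counts gave 169 of 10448, the single fit 1140 of 17064, technical libraries a 165 of 10135, and 1 sample left out 8 to 448. In spheroids against hepatocytes 2112 of 12247 were called, 2104 of 24387 with DESeq2, 2763 of 24387 with no filter and 2695 of 17064 in the single fit. The replicate block called 1985 of 12247, limma-voom 1999 of 12247 and at least 10 counts 1507 of 10281. Same-numbered samples of 2 groups did not deviate together throughout (correlations of deviations -0.133 to 0.135), so the numbers were not taken to pair the samples.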

Other observations

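*Pigr*, whose product takes up polymers joined by the J chain, was 62.6, 185, 36.2, 76.6 and 230 TPM in explants, 4.47 to 8.13 TPM in irises, 796 to 879 TPM in livers, 393 to 1025 TPM in hepatocytes and 38.7 and 28.6 TPM in spheroids. It rose in explants against irises by 4.34 (SE 0.76, edgeR adjusted p = 0.00695) and fell in spheroids against hepatocytes by 4.81 (SE 0.49, edgeR adjusted p = 0.000814). *Ltb*, a cytokine chain of lymphoid tissue formation, rose in explants against irises by 4.31 (SE 0.96, edgeR adjusted p = 0.0201) and was 6.12 to 34.7 TPM in explants and 0 to 1.58 TPM in irises. These were the 2 called of 9 tested in a list of 15 genes of lymphoid trafficking, and limma-voom called 0.

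Myeloid genes were present in spheroids, where the 10 genes described here were at the floor. Of the 10 macrophage genes, 6 rose against hepatocytes, beside 8.13% of genes tested that were called higher. Among the 6 were *Cd14*, a receptor for bacterial lipopolysaccharide, by 3.84 (SE 0.52), and *Cd68*, a lysosomal protein of macrophages, by 2.33 (SE 0.23). The macrophage list summed to 600 and 798 TPM in spheroids and 157 to 291 TPM in hepatocytes. Of 7 pan-leukocyte genes, *Coro1a* and *Cd53* rose there and 0 fell.

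*Xcl1*, a chemokine of NK and cytotoxic T cells, was 1.87 to 8.23 TPM in explants (2 to 9 counts), 2.66 and 3.78 TPM in livers 1 and 3, and at 0 counts in all 3 irises, in liver 2 and in hepatocytes. In explants against irises, edgeR called 3 of 7 pan-leukocyte genes higher, 1 of 2 tested neutrophil genes (*Csf3r*), 1 of 5 erythroid genes (*Alas2*), 6 of 6 hepatocyte genes, 0 of 6 tested dendritic cell genes and 0 of 6 iris genes. At an unadjusted p under 0.05, 4 dendritic cell genes and 0 iris genes were higher, 0 and 4 were lower, and DESeq2 called 1 and 0 higher. Of these lists limma-voom called only the 6 hepatocyte genes.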
